A study of Rattus norvegicus with 18 samples.

Results

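Rat pXEN cells were vacuolated by 2 routes, with the small molecule CHIR99021 or with BCS in the medium, and the transcriptomes of the cells obtained by each route were compared directly. The comparison uses 6 of the 18 samples of the study, the 3 CHIR-vacuolated and the 3 BCS-vacuolated cultures that were not sorted before RNA extraction. Every gene was a member of the comparison, chosen by no measured value, and 11503 of the 28695 gene symbols in the files had enough counts to be tested. All samples were rat XENP cells, the labels' cell type, derived from blastocysts of the WKY strain and labelled female. CHIR cultures received 0.5 µM CHIR99021 and were at passages 37, 41 and 51. BCS cultures received 14% BCS and were at passages 41, 32 and 42. The labels do not spell out BCS, and they describe both as additions to routine culture. Normal cells (passages 37, 40 and 51) and CHIR-vacuolated cells that had been sorted (passages 35, 38 and 49) are quoted below as reference levels, with 3 libraries each. The samples were prepared independently, but the labels do not say whether the 3 replicates of a group come from separate cell derivations. The p-values therefore measure only the spread between replicate cultures, estimated over all 6 groups of the study.

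Extraembryonic endoderm precursors stem from the primitive endoderm of the blastocyst, which in the embryo gives rise to visceral endoderm, an absorptive epithelium, and to parietal endoderm, which lays down a thick basement membrane. CHIR99021 inhibits glycogen synthase kinase 3 (GSK3), a kinase that marks beta-catenin for destruction, and beta-catenin spared from destruction joins TCF/LEF proteins at Wnt target genes. Lysosomes are the acidic compartments that degrade endocytosed material, and many of their genes are controlled by the MiT/TFE transcription factors, among them TFEB, through a promoter motif known as the CLEAR element.

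The 3 CHIR libraries held 7730453, 6047673 and 6737671 gene-assigned counts and the 3 BCS libraries 5863329, 8226037 and 7444684. The 2 most abundant genes, neither of which was called as different between the routes, took 44.3 to 52.2% of the counts in the CHIR libraries and 45.2 to 49.3% in the BCS libraries, which left 2973963 to 4510327 counts a library for all other genes. BCS replicate 2, the culture at passage 32, stood apart from the other BCS libraries. In a principal component analysis of the 6 libraries the first component (55.6% of the variance) placed the CHIR libraries at -30.9, -33.7 and -26.2, BCS replicates 1 and 3 at 44.4 and 36.6, and BCS replicate 2 between them at 9.92. Among the genes higher in BCS, replicate 2 was the lowest BCS library for 480 of 851 (56.4%), and among those higher in CHIR it was the highest BCS library for 449 of 671 (66.9%). Many results are therefore also given without it, where 7.91% of genes tested were higher in CHIR and 8.7% higher in BCS. Passage entered 1 alternative fit, described below, but whether it sets this library apart was not tested.

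Across the transcriptome 1522 of the 11503 genes tested (13.2%) differed between the routes at an adjusted p below 0.05, where adjusted p is the Benjamini-Hochberg value of edgeR's quasi-likelihood test here and throughout. Of these, 671 (5.83% of genes tested) were higher in CHIR and 851 (7.4%) were higher in BCS. The difference exceeded 2-fold for 525 genes, 160 of them higher in CHIR and 365 higher in BCS. For 1459 of the 1522 called genes the lowest library of the higher group lay above every library of the other group, and such separation occurred for 3950 of all genes tested (34.3%). The median log2 difference over all genes tested was 0.01. Removing BCS replicate 2 raised the number of called genes to 1947, and removing BCS replicates 1 or 3 or CHIR replicates 1, 2 or 3 lowered it to 748, 983, 863, 815 and 1164. In bulk RNA a larger share of cells with a programme and more RNA per cell cannot be told apart, and the share of vacuolated cells in each culture is not given by the labels.

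**Figure D1:**
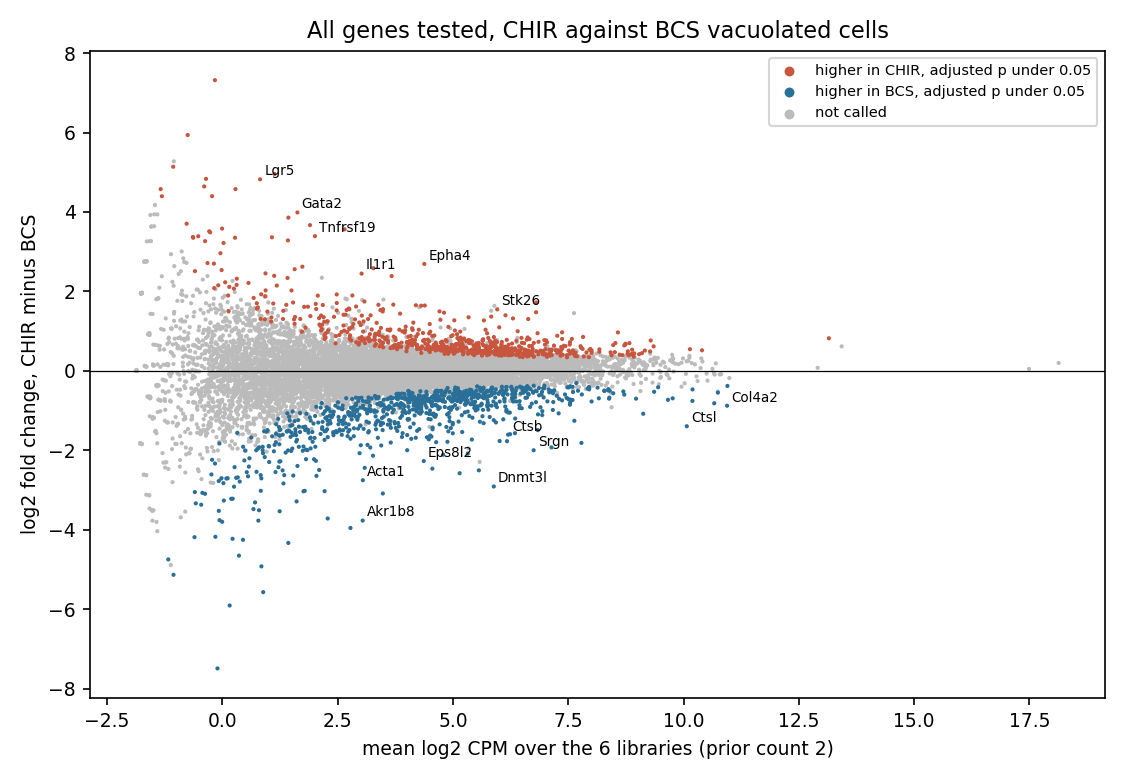
Each point is 1 of the 11503 genes tested, with its mean log2 counts-per-million (CPM) value over the 6 libraries on the x axis and its log2 difference, CHIR minus BCS, on the y axis. Red points (671) are higher in CHIR and blue points (851) higher in BCS at an adjusted p under 0.05, and blue points outnumber red ones among the differences beyond 2-fold.

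The genes with the greatest excess in CHIR among those of at least moderate level included several receptors and signalling molecules. Epha4, an Eph receptor tyrosine kinase, had 59.6, 54.2 and 51.3 CPM in the CHIR libraries and 6.45, 13.5 and 4.92 in the BCS libraries, a 6.46-fold difference (log2 2.69 ± 0.26 SE, adjusted p = 1.77e-06). Igf1, the insulin-like growth factor, had 27.6, 23.3 and 28.2 CPM in CHIR against 1.53, 8.26 and 2.59 in BCS (log2 2.58 ± 0.38, adjusted p = 0.00029). Il1r1, the interleukin-1 receptor, had 21.9, 20.9 and 17.5 CPM against 1.87, 6.5 and 2.07 (log2 2.45 ± 0.31, adjusted p = 1.93e-05). Genes entered this set only where the groups did not overlap, so their separation is no separate result. In all 3 genes BCS replicate 2 was the BCS library closest to CHIR. Without that library the log2 differences were 3.29 for Epha4, 3.63 for Igf1 and 3.33 for Il1r1. Ngfr, the low-affinity neurotrophin receptor, showed the same ordering with 30.3 ± 6.09 CPM (SD, n = 3) in CHIR and 5.62 ± 3.24 in BCS (log2 2.39, and 3.01 without BCS replicate 2). The serine/threonine kinase Stk26 was the steadiest of the group, at 113, 108 and 98.0 CPM in CHIR and 33.1, 35.7 and 40.1 in BCS (log2 1.55 ± 0.18, adjusted p = 6.84e-06). The remaining members of the upper set of 12 were the hyaluronan receptor Cd44, Frmpd1, the organic cation exporter Slc47a1, the lysophosphatidic acid receptor Lpar1, Plekhg1, the carbonic anhydrase Car12 and the kinase Nrk, with log2 differences of 1.55 to 1.75. Without BCS replicate 2 the value rose to 2.42 for Cd44, 2.28 for Frmpd1, 2.69 for Plekhg1 and 2.82 for Car12. The calls of 3 of these genes depended on the fit. With the 2 groups fitted alone Plekhg1 had an adjusted p of 0.147 and Car12 of 0.173. Car12 also missed the threshold without CHIR replicate 1 (0.0503), CHIR replicate 2 (0.0604) or BCS replicate 1 (0.0568), and Slc47a1 did so without CHIR replicate 1 (0.0502), BCS replicate 1 (0.0642) or BCS replicate 3 (0.0723).

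At the other end stood genes of several unrelated functions. Akr1b8, an aldo-keto reductase, had 2.10, 2.07 and 2.32 CPM in CHIR and 33.9, 15 and 41.1 in BCS, a 13.6-fold difference (log2 -3.77 ± 0.63, adjusted p = 0.00143). Dnmt3l, the catalytically inactive partner of the de novo DNA methyltransferases, had 19.8, 21.6 and 26.9 CPM in CHIR and 208, 73.0 and 234 in BCS (log2 -2.91 ± 0.40, adjusted p = 0.000363). Acta1, skeletal muscle actin, had 4.07, 4.14 and 1.37 CPM against 22.9, 20.7 and 20.5 (log2 -2.75 ± 0.36, adjusted p = 2.25e-05). Groups that do not overlap were a condition for this set too. In Akr1b8 and Dnmt3l BCS replicate 2 held the lowest BCS level. Akr1b8, its relative Akr1c14 (20.1 ± 2.73 against 114 ± 34.4 CPM) and Acta1 have close paralogs between which reads may be split, so their values are uncertain. Slc5a5, the sodium-iodide symporter, had 3.79, 2.59 and 4.10 CPM in CHIR and 18.8, 21.0 and 17.9 in BCS (log2 -2.44 ± 0.23, adjusted p = 2.15e-07). Eps8l2, an actin-binding protein, had 9.27 ± 1.00 and 45.1 ± 9.13 CPM (log2 -2.27). Srgn, the proteoglycan core protein serglycin, had 53.9 ± 3.87 and 215 ± 31.5 CPM (log2 -2.0). Sorted CHIR cells had 191 ± 13.1 CPM of Srgn, overlapping BCS. They had 25.3 ± 7.15 CPM of Dnmt3l and 11.2 ± 3.21 of Eps8l2, below every BCS library. Dusp4, a phosphatase that switches off MAP kinases, had 19.9 ± 7.51 and 84.1 ± 19.3 CPM (log2 -2.08). Slc15a2, a peptide transporter, also belonged to this set, with a log2 difference of -2.14. Its adjusted p was 0.0583 without CHIR replicate 2 and 0.0511 without CHIR replicate 3. The lysosomal genes Lgmn and Igf2r also belong to the set and are described with the lysosome.

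**Figure D2:**
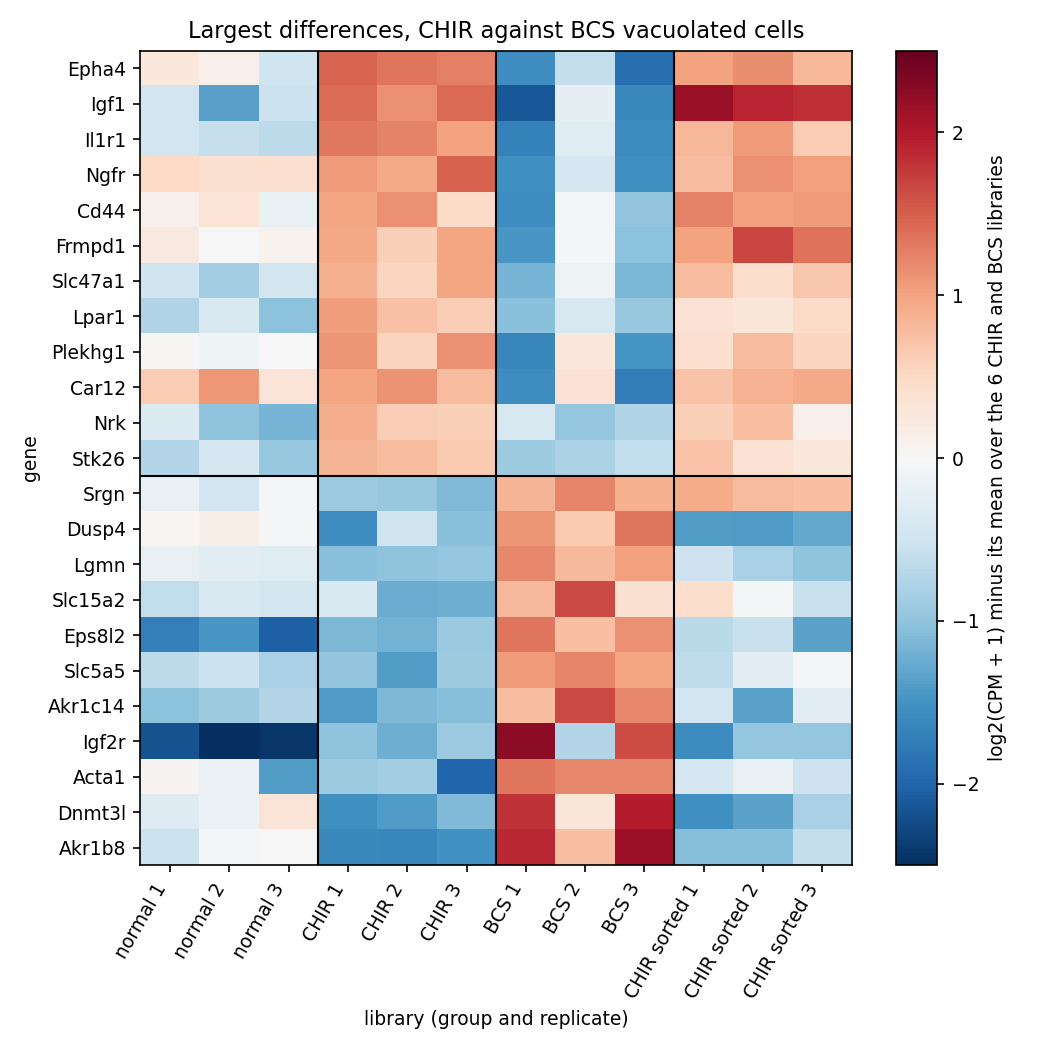
The heat map shows the 12 genes highest and 11 of the 12 lowest in CHIR relative to BCS, as log2(CPM + 1) minus the gene's mean over the 6 CHIR and BCS libraries, in each of 12 libraries. The second BCS column is paler than the first and the third for most genes, and the normal libraries match neither route throughout.

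Among Wnt feedback and target genes, 15 of 26 listed genes could be tested, and their median log2 difference was 0.32 against 0.01 over all genes. Of the 15, 3 were higher in CHIR (20% against 5.83% of all genes) and none was higher in BCS (against 7.4%). The 3 were Lgr5, the R-spondin receptor, Tnfrsf19, a TNF receptor family member, and Axin2, the feedback scaffold of the beta-catenin destruction complex. Raw counts of Lgr5 were 54, 41 and 40 in the CHIR libraries and 0, 2 and 3 in the BCS libraries, with 0 in every normal library and 106 over the 3 sorted CHIR libraries. As a level this was 6.70 ± 1.1 CPM against 0.20 ± 0.20 (log2 4.82 ± 0.46, adjusted p = 4.18e-07, and 5.48 without BCS replicate 3). With so few counts in BCS, this SE, which is derived from the test statistic, is too small. Tnfrsf19 counts were 92, 77 and 89 against 2, 17 and 9, or 12.8 ± 0.57 CPM against 1.13 ± 0.77 (log2 3.39 ± 0.38, adjusted p = 2.19e-06). For both genes every CHIR library lay far above every BCS library, although most called genes had groups that did not overlap. Axin2 counts were low throughout, at 11, 10 and 12 against 2, 0 and 4, with 0 in all normal libraries. Its log2 difference was 2.54 ± 0.79 with an adjusted p of 0.0366, which became 0.0839, 0.0954, 0.0812, 0.108 and 0.118 when CHIR replicates 1, 2 or 3 or BCS replicates 1 or 2 were left out, while without BCS replicate 3 the log2 difference was 3.43. Several further targets were not detected by either route. Lef1, Sp5, Notum, Cdx1 and Cdx4 had 0 counts in all 6 libraries, and Nkd1 had 1 count in a single CHIR library. Myc, another target, had 9.89 ± 2.66 CPM in CHIR and 5.69 ± 1.29 in BCS, which missed the threshold (log2 0.81, adjusted p = 0.0618).

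The promoter of Axin2 is shown because it was the 1 of 2 called Wnt targets matched to the promoter table whose 250 bases upstream of the annotated start held the TCF/LEF core motif. The sequence is that of RefSeq on build GRCr8 at chr10:94398535-94398784, plus strand, 5′ to 3′, with the motif CTTTGAT in capitals, 132 bases before the start. The motif was searched on both strands and occurred in 3.15% of 33469 RefSeq rat promoters of this length and in 4 of the 18 Wnt target genes matched by symbol. A match describes these letters only.
Axin2: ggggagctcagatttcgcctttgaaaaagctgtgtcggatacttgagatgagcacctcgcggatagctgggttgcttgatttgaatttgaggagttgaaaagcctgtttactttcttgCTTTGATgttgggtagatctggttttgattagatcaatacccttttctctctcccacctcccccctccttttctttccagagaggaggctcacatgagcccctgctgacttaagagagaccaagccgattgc

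Of 24 tested members of the destruction complex and Wnt pathway core, 4 were higher in BCS (16.7% against 7.4% of all genes) and 1 was higher in CHIR (4.17% against 5.83%), with a median log2 difference of -0.06. These counts were 3 and 2 without BCS replicate 2. Wnt7b, a ligand, had 2.24, 3.62 and 5.47 CPM in CHIR and 15.1, 18.7 and 14.1 in BCS (log2 -2.07 ± 0.30, adjusted p = 5.2e-05), where normal cells had 17.8, 16.7 and 20.0. The BCS level of Wnt7b thus overlapped that of normal cells, and the CHIR level lay below both. Wls, the carrier that brings Wnt ligands to the cell surface, was also higher in BCS, at 42.3 ± 12.9 against 16.7 ± 4.09 CPM (log2 -1.35), as was the signal transducer Dvl2 (log2 -0.71). The receptor Fzd6 was higher in CHIR, at 65.9 ± 2.92 against 42.9 ± 4.76 CPM (log2 0.62, adjusted p = 0.00121).

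Gata2 also separated the routes. This transcription factor, known from trophoblast and blood development, had 11.9, 9.31 and 12.7 CPM in the CHIR libraries and 0.68, 1.21 and 0.13 in the BCS libraries (15.9-fold, log2 3.99 ± 0.32, adjusted p = 3.54e-08, and 4.88 without BCS replicate 2). Normal cells had 0.47 ± 0.15 CPM and sorted CHIR cells 10.6 CPM on average, so it was at a like level in CHIR cells with and without sorting and near the level of normal cells in BCS cells. Of 17 listed trophoblast markers, 5 were tested and Gata2 alone was called. Hand1, Gcm1 and Prl3d1 had 0 counts in the 6 libraries and Cdx2 had 2. The list's summed level was 73.0 to 76.6 CPM in CHIR and 68.9 to 76.3 in BCS.

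Among the lists with at least 10 tested members, the lysosomal hydrolases had the largest share higher in BCS (60.5%). Of 43 tested lysosomal hydrolases and cofactors, 26 were higher in BCS and none was higher in CHIR, against 7.4% and 5.83% of all genes, and their median log2 difference was -0.76. The difference was negative for 39 of the 43. Summed over the list, the level was 2475, 2648 and 2574 CPM in the CHIR libraries and 4034, 5142 and 3987 in the BCS libraries, where the normal libraries had 3172 to 3221. In this sum the BCS libraries stood above the normal libraries and the unsorted CHIR libraries below them. Sorted CHIR libraries, at 3123, 2653 and 2751 CPM, lay below the BCS libraries as well. The position of the unsorted CHIR libraries rested on Ctsl, described below. Without that gene, an alternative chosen after seeing the data, the sums were 1822, 1880 and 1955 CPM in CHIR, 1894, 1979 and 1905 in normal cells and 2664, 2553 and 2584 in BCS, so that CHIR and normal cells overlapped and BCS cells lay above both. Without BCS replicate 2 the list had 25 members higher in BCS and 1 higher in CHIR, and 16 and 17 were higher in BCS without CHIR replicate 2 and without BCS replicate 1.

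Several proteases were among them. Ctsb, the cysteine protease cathepsin B, had 36.5, 42.6 and 46.7 CPM in CHIR and 138, 122 and 124 in BCS (3.05-fold, log2 -1.61 ± 0.14, adjusted p = 7.25e-08). Normal cells had 15 ± 2.6 CPM of Ctsb and sorted CHIR cells 85.1 on average, so both routes lay above normal cells and the unsorted CHIR cells below the sorted ones. Lgmn, the asparaginyl endopeptidase legumain that matures cathepsins, had 12.8, 13.1 and 13.5 CPM against 64.4, 49.0 and 57.2 (log2 -2.11 ± 0.26, adjusted p = 1.89e-05). Ctsl, cathepsin L, had 653, 767 and 619 CPM in CHIR and 1370, 2590 and 1402 in BCS (log2 -1.40 ± 0.22, adjusted p = 0.000284). Here the CHIR libraries lay below the normal libraries (1296, 1242 and 1267), and BCS replicate 2 held the highest level. Cathepsin A, encoded by Ctsa, protects other lysosomal enzymes and had 78.6 ± 8.0 against 168 ± 16.8 CPM (log2 -1.1, adjusted p = 7.49e-06). Enzymes of glycogen and glycan breakdown were called as well. Gaa, acid alpha-glucosidase, had 4.61 ± 1.35 CPM against 17.8 ± 3.08 (log2 -1.93 ± 0.27, adjusted p = 3.46e-05), Manba, beta-mannosidase, 8.32 ± 1.12 against 20.8 ± 3.56 (log2 -1.33), and Neu1, a sialidase, 22.2 ± 1.54 against 54.1 ± 8.0 (log2 -1.28). Grn, the precursor of lysosomal granulins, had 6.31, 2.93 and 11.6 CPM against 24.6, 28.3 and 21.8 (log2 -1.81 ± 0.38, adjusted p = 0.00518, and -2.39 without CHIR replicate 3). The other called members included the sphingolipid enzymes Asah1 (log2 -0.90) and Arsa (log2 -0.81) and the thioesterase Ppt2 (log2 -1.09). Cathepsin D was an exception. Ctsd had 86.2, 90.4 and 97.2 CPM in CHIR and 69.7, 163 and 64.1 in BCS (log2 -0.12, adjusted p = 0.808), with the CHIR libraries lying between the BCS libraries. Without BCS replicate 2 Ctsd was higher in CHIR (log2 0.45, adjusted p = 0.0403).

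**Figure D3:**
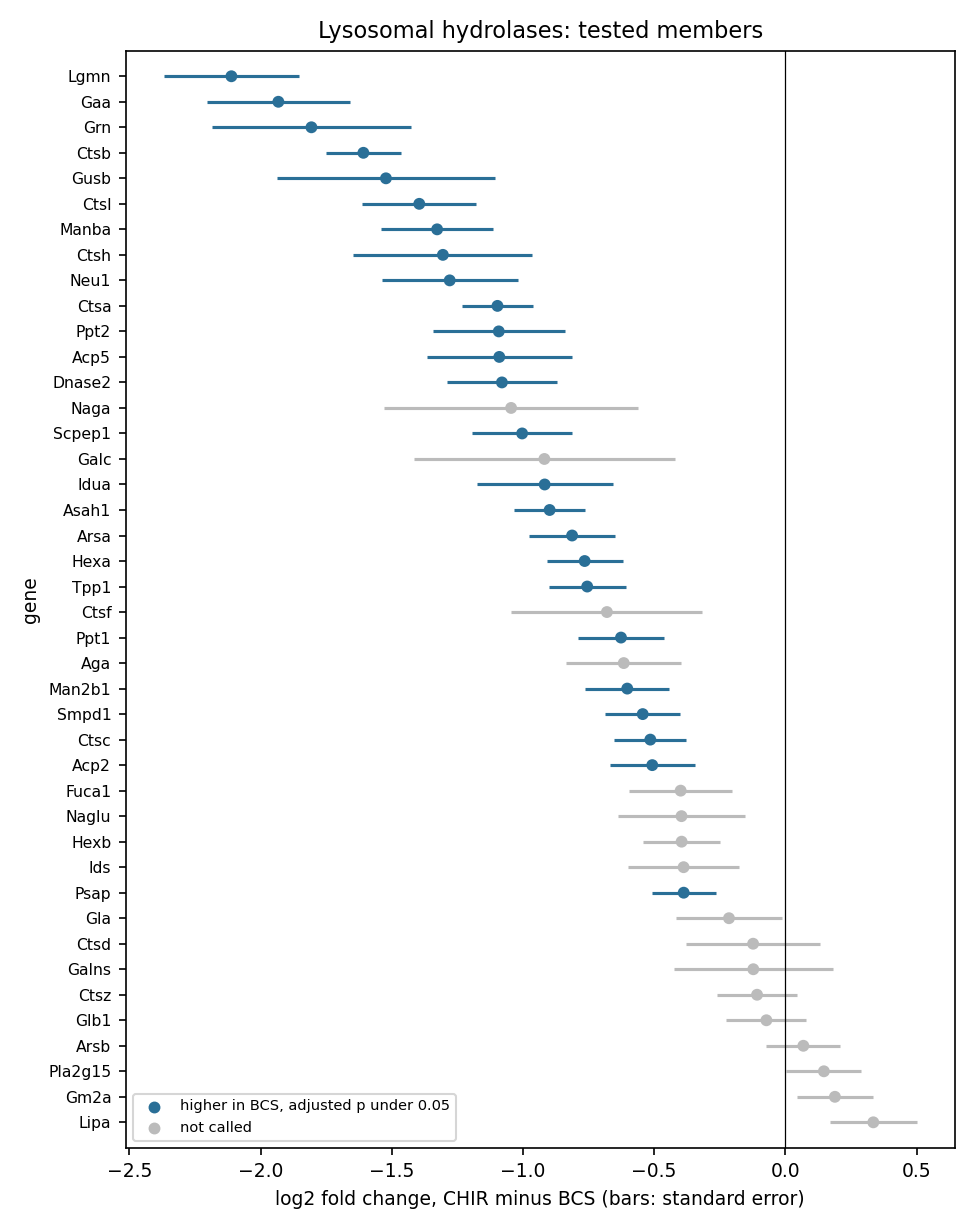
Tested lysosomal hydrolases and cofactors, all but 1 of the 43, are ordered by log2 difference, CHIR minus BCS, with bars of 1 standard error, derived from the test statistic. Blue genes are higher in BCS, none is higher in CHIR, and the points run from Lgmn at -2.11 to positive values that did not pass the test.

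Of 29 tested membrane proteins and enzyme sorting factors of the lysosome, 9 were higher in BCS (31% against 7.4% of all genes). None was higher in CHIR (against 5.83%), and the median log2 difference was -0.52. Lamp1, an abundant glycoprotein of the lysosomal membrane, had 622, 636 and 636 CPM in CHIR and 1132, 865 and 1145 in BCS (log2 -0.73 ± 0.13, adjusted p = 0.000328). Npc2, which carries cholesterol in the lysosome lumen, had 40.1 ± 1.20 against 73.5 ± 3.85 CPM (log2 -0.87 ± 0.13, adjusted p = 5.9e-05). Mcoln1, a calcium channel of the lysosome, had 29.3 ± 1.69 against 51.0 ± 2.16 (log2 -0.80), and the tetraspanin Cd63 had 78.7 ± 7.01 against 140 ± 18.7 (log2 -0.83). Igf2r, the mannose 6-phosphate receptor that delivers hydrolases, had 17.2, 14.7 and 18.3 CPM in CHIR and 171, 20.8 and 111 in BCS. Its log2 difference was -2.58 ± 0.63 with an adjusted p of 0.0175, but BCS replicate 2 lay close to the CHIR libraries. The call did not hold with the 2 groups fitted alone (0.134) or without CHIR replicate 1, 2 or 3 (0.0659, 0.0752 and 0.054) or BCS replicate 1 or 3 (0.0945 and 0.0504). Without BCS replicate 2 the count of 9 became 10, and 1 member was higher in CHIR. It was 4 without CHIR replicate 2, CHIR replicate 3 or BCS replicate 1, 5 without BCS replicate 3, and 6 without CHIR replicate 1.

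The promoters of Lamp1, Mcoln1, Igf2r and Gaa are shown because each of these 4 called lysosomal genes held the letters TCACGTG, the core of the CLEAR element, within 250 bases upstream of its start. They were picked after their values were seen. Across both strands, with an overlap of both counted as 1 place, the motif was found in 2.79% of the 33469 promoters, in 5 of 34 matched hydrolases (14.7%) and in 9 of 28 matched membrane and sorting genes (32.1%). Among the called genes it was found for 1 of 17 matched hydrolases (5.88%) and for 3 of 9 membrane and sorting genes (33.3%). TCACGTG contains the E-box CACGTG. Sequences are from RefSeq, build GRCr8, 5′ to 3′ on the strand of the gene, with each place in capitals. Lamp1 lies at chr16:83075064-83075313 on the minus strand and holds 5 places between 184 and 39 bases before the start. Mcoln1 is at chr12:6358008-6358257, plus strand, with 1 place at 23 bases. The window of Igf2r is chr1:50526628-50526877, plus strand, with 2 places at 126 and 86 bases. That of Gaa is chr10:105028105-105028354, plus strand, with 1 place at 67 bases.
Lamp1: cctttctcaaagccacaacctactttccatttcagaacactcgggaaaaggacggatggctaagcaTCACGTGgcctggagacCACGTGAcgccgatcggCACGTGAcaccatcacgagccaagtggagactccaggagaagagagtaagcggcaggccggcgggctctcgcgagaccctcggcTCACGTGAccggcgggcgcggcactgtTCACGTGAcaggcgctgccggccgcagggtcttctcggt
Mcoln1: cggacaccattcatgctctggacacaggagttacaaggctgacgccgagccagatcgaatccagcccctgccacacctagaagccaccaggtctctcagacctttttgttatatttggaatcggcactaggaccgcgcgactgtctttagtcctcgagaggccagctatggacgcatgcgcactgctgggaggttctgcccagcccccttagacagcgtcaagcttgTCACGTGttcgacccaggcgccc
Igf2r: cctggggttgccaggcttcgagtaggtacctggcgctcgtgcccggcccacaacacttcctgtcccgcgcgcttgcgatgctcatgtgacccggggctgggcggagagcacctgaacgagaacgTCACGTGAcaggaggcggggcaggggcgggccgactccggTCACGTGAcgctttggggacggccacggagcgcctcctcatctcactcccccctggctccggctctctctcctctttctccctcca
Gaa: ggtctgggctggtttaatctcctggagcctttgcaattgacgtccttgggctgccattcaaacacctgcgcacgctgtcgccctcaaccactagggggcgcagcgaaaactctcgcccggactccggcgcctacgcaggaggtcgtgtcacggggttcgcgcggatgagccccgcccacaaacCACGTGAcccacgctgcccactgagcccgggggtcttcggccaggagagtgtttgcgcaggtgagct

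The MiT/TFE factors and lysosome signalling genes had 20 members tested. Of these, 2 were higher in CHIR (10% against 5.83% of all genes) and 5 in BCS (25% against 7.4%). Tfeb itself was higher in CHIR, with 38.4, 40.7 and 47.2 CPM against 29.8, 31.5 and 19.6 in BCS (log2 0.64 ± 0.19, adjusted p = 0.0261), opposite in sign to the hydrolases. Tfeb missed the threshold without CHIR replicate 2 (0.0656), CHIR replicate 3 (0.11) or BCS replicate 3 (0.168). Flcn, the folliculin subunit that controls TFEB at the lysosome, was higher in BCS, at 49.0 ± 3.60 against 31.4 ± 1.23 CPM (log2 -0.65, adjusted p = 0.00518). The small GTPase Rragd was also higher in BCS, at 13.4 ± 3.37 against 5.5 ± 1.30 CPM (log2 -1.28), but its adjusted p was 0.067 without CHIR replicate 1, 0.0771 without CHIR replicate 2 and 0.0569 without BCS replicate 2. The number higher in BCS was 3 without CHIR replicate 1, CHIR replicate 2, BCS replicate 1 or BCS replicate 2. The proton pump that acidifies lysosomes, the V-ATPase, had 18 subunits tested, with a median of -0.13. Of these, 4 were higher in BCS (22.2% against 7.4% of all genes) and none in CHIR (1 without BCS replicate 2). Tcirg1 (log2 -0.99) and Atp6v1f (log2 -0.57, 30.5 ± 1.04 against 45.5 ± 1.38 CPM) were the clearest of these, and Tcirg1 missed the threshold without CHIR replicate 1 (0.0529) or CHIR replicate 2 (0.0518). In the autophagy list 8 of 28 members were higher in BCS (28.6% against 7.4% of all genes) and 1 in CHIR (3.57% against 5.83%). Gabarapl1, an ATG8 family protein of the autophagosome, had 5.19, 7.42 and 4.51 CPM in CHIR and 24.3, 12.6 and 26.0 in BCS (log2 -1.88 ± 0.27, adjusted p = 4.76e-05). Optn, an autophagy receptor, had 1.73 ± 1.30 against 7.12 ± 1.37 CPM (log2 -2.0, and -2.82 without CHIR replicate 1). Atg16l1, part of the machinery that lipidates ATG8 proteins, was the member higher in CHIR (log2 0.95). The autophagy count was 5 without CHIR replicate 1. Endocytosis genes had 6 of 45 members higher in BCS (13.3% against 7.4% of all genes) and 2 in CHIR (4.44% against 5.83%). The 6 were 2 without CHIR replicate 1 or 2 and 3 without BCS replicate 1 or 3. Amn, the partner of cubilin in endocytosis by visceral endoderm, was higher in BCS (83.1 ± 12 against 37.2 ± 3.07 CPM, log2 -1.16, adjusted p = 0.000123).

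Lineage regulators of the extraembryonic endoderm included genes called in each direction. Gata6, one of the first factors of primitive endoderm, had 46.3, 50.4 and 51.1 CPM in CHIR and 90.6, 81.9 and 80.3 in BCS (log2 -0.77 ± 0.14, adjusted p = 0.000597), while normal cells had 80.1 ± 3.95. Pdgfra, a receptor of primitive endoderm, went the other way, at 277, 213 and 274 CPM against 155, 165 and 118 (log2 0.80 ± 0.16, adjusted p = 0.00167). For both genes the groups did not overlap, as was so for most called genes. Sorted CHIR cells had 97.7 ± 8.63 CPM of Gata6, overlapping BCS. They had 218.5 ± 41.5 CPM of Pdgfra, above every BCS library. Lifr, the receptor for the cytokine LIF, was higher in BCS (273 ± 10.3 against 181 ± 16.9 CPM, log2 -0.59). Gata4 (276 ± 21.7 against 317 ± 48.2 CPM, adjusted p = 0.422), Sox7 (log2 -0.65, adjusted p = 0.104) and Sox17 (log2 0.08 ± 0.16, adjusted p = 0.789) did not pass the test. The primitive endoderm list had 1 of 12 members higher in CHIR (8.33% against 5.83% of all genes) and 2 higher in BCS (16.7% against 7.4%). Visceral endoderm genes had 1 of 14 higher in each direction (7.14%), near the shares over all genes, and a median log2 difference of -0.09. The signalling protein Ihh was higher in CHIR (11.8 ± 3.66 against 5.06 ± 0.94 CPM, log2 1.22), although its adjusted p was 0.0546 without CHIR replicate 1 and 0.0507 without BCS replicate 1. Hnf4a had 9.16 ± 3.24 against 13.6 ± 1.16 CPM (adjusted p = 0.0833), and the classical markers Ttr and Apoa1 had 0 counts in the 6 libraries.

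Of 15 tested pluripotency-associated genes, 4 were higher in BCS (26.7% against 7.4% of all genes) and 1 was higher in CHIR (6.67% against 5.83%). Leaving out BCS replicate 2 gave 5 and 2. Pou5f1, which encodes OCT4, had 37.3, 33.3 and 48.8 CPM in CHIR and 71.6, 70.6 and 74.8 in BCS (log2 -0.86 ± 0.19, adjusted p = 0.00464), and both stood below the 118 ± 15.7 CPM of normal cells. Lin28a, an RNA-binding protein that blocks let-7 maturation, was higher in CHIR, at 235, 239 and 244 CPM against 128, 174 and 133 (log2 0.72 ± 0.13, adjusted p = 0.000412). Dppa5 was nearly absent from CHIR cells, with 0.28, 0 and 0.55 CPM, and was uneven among BCS cells, with 14.9, 1.1 and 12.6 (log2 -4.92, adjusted p = 0.00559, -5.79 without CHIR replicate 3 and -5.64 with passage as a covariate). Nanog, Sox2, Fgf4 and Prdm14 had 0 counts in all 6 libraries.

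**Figure D4:**
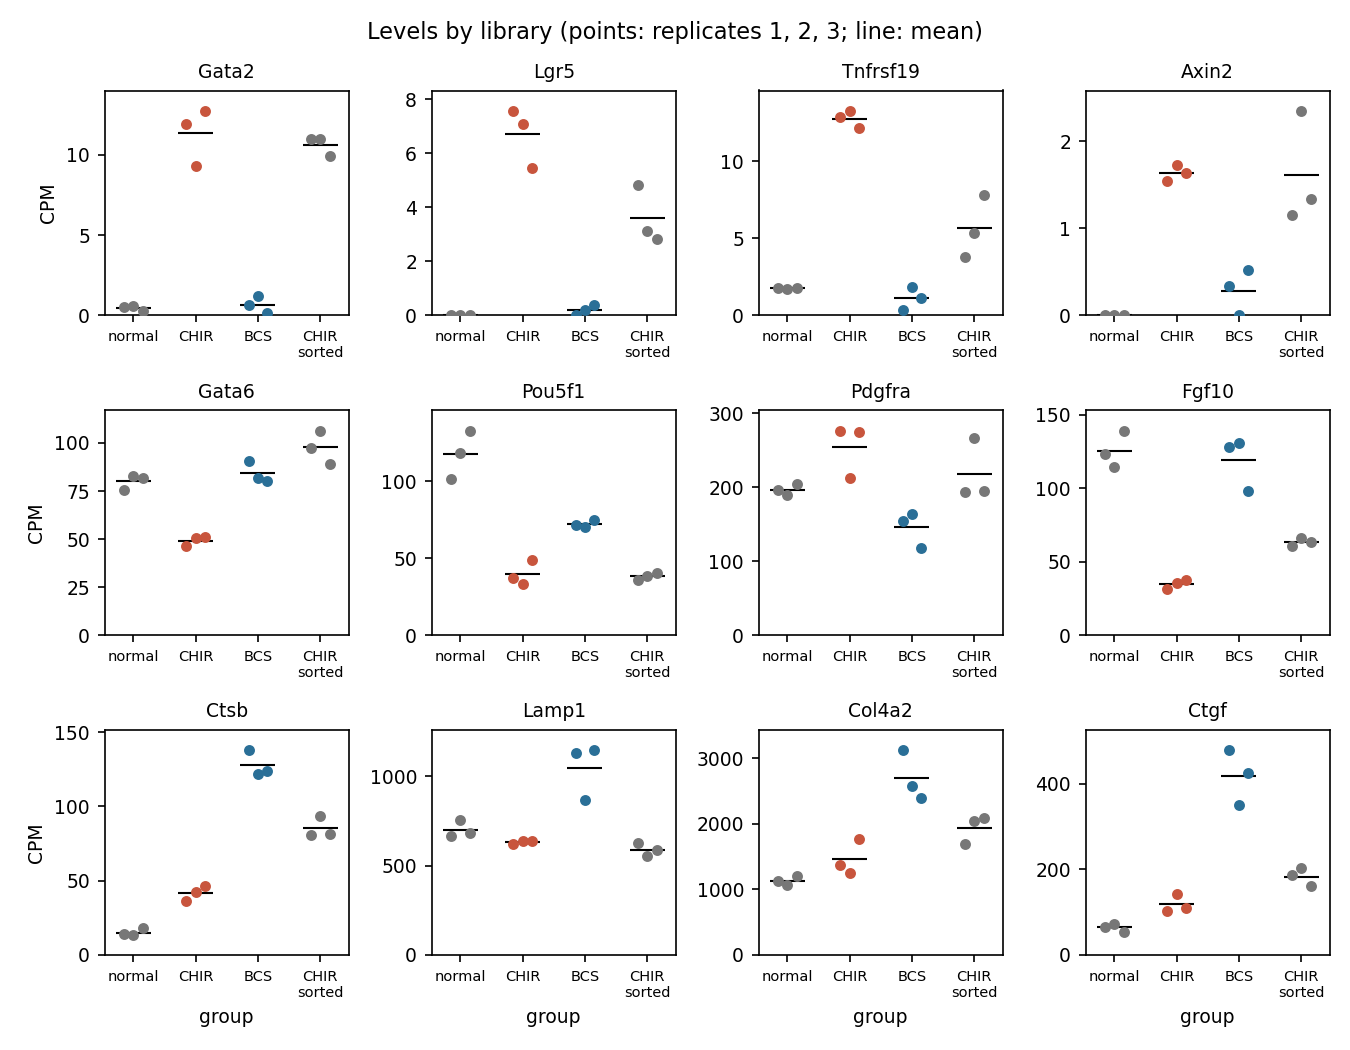
Levels of 12 genes in CPM (linear axes from 0) are plotted by library in normal, CHIR, BCS and sorted CHIR cells, with 3 points and a mean line per group. Gata2, Lgr5, Tnfrsf19 and Axin2 are higher in both CHIR groups than in BCS and normal cells, whereas Gata6 and Fgf10 in BCS cells overlap the normal range.

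Of 18 tested parietal endoderm genes, 9 were higher in BCS (50% against 7.4% of all genes) and 2 in CHIR (11.1% against 5.83%), with a median of -0.52. Those higher in BCS included the basement membrane genes Col4a1, Col4a2, Lamb1 and Sparc, as well as Gata6 and Pga5. The 2 higher in CHIR were Fst and Krt19, and without BCS replicate 2 the count in CHIR was 1. Fst, the activin antagonist follistatin, had 13.0, 12.8 and 12.2 CPM in CHIR and 3.39, 4.51 and 4.27 in BCS (log2 1.62 ± 0.21, adjusted p = 1.6e-05). Pga5, a pepsinogen, had 0.84 ± 0.27 against 8.37 ± 1.72 CPM (log2 -3.29 ± 0.43, adjusted p = 1.6e-05). Snai1, a repressor of epithelial genes, had 4.07 ± 0.74 against 10.5 ± 3.55 CPM (log2 -1.35), with an adjusted p of 0.062 without BCS replicate 1. Plat, tissue plasminogen activator, had 14.3, 13.1 and 13.9 CPM against 47.3, 24.1 and 72.9 (log2 -1.80, adjusted p = 0.036). Its groups did not overlap, but its BCS levels were widely spread, and 5 of the 6 fits that left out a library, all but the one without BCS replicate 2, gave it an adjusted p of 0.0943 to 0.145. Without BCS replicate 1 the count of BCS-higher parietal genes was 5 in place of 9. The list's summed level was 8677 to 10690 CPM in CHIR, 11880 to 14920 in BCS and 11230 to 13920 in sorted CHIR cells. Sorted CHIR cells had 10.9 ± 3.05 CPM of Snai1, overlapping BCS, but 1.40 ± 0.17 of Pga5, below every BCS library.

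Basement membrane genes were higher in BCS for 9 of 21 tested members (42.9% against 7.4% of all genes). None was higher in CHIR (against 5.83%), and the median log2 difference was -0.52. Col4a2, a chain of type IV collagen, had 1376, 1254 and 1765 CPM in CHIR and 3122, 2575 and 2388 in BCS (log2 -0.88 ± 0.16, adjusted p = 0.000686). Its partner chain Col4a1 had 1239 ± 191 against 2181 ± 510 CPM (log2 -0.82 ± 0.17, adjusted p = 0.00295), with an adjusted p of 0.0508 without BCS replicate 1. Sparc, a collagen-binding glycoprotein, had 1423 ± 69.8 against 2082 ± 262 CPM (log2 -0.55), and the laminin chain Lamb1 999 ± 112 against 1383 ± 124 (log2 -0.47). Lamb1 missed the threshold without CHIR replicate 1 (0.068), CHIR replicate 2 (0.111) or BCS replicate 1 (0.119). All 4 matrix genes differed by less than 2-fold. Nid1, the linker nidogen, was low in both, at 1.85 ± 0.32 against 7.17 ± 4.38 CPM (log2 -1.95, and -1.30 without BCS replicate 2). The summed level of the list was 9482, 8525 and 10740 CPM in CHIR and 15480, 14470 and 11970 in BCS. Sorted CHIR libraries had 11650, 14950 and 12940 CPM, overlapping the BCS range. Of single genes, Col4a1 in sorted CHIR cells (2424 ± 535 CPM) also overlapped BCS. Their levels of Col4a2 (1943 ± 212) and Sparc (1313 ± 92.7) lay below every BCS library. Without CHIR replicate 1, CHIR replicate 2 or BCS replicate 1 the number of members higher in BCS was 5, and without BCS replicate 2 there were 2 higher in CHIR.

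Integrins and focal adhesion genes had 7 of 21 members higher in BCS (33.3% against 7.4% of all genes) and none in CHIR (against 5.83%). Itga5, the fibronectin receptor subunit, had 19.6 ± 1.71 against 47.0 ± 8.72 CPM (log2 -1.27 ± 0.18, adjusted p = 2.75e-05), and Actn1, an actin crosslinker, 14.3 ± 1.39 against 38.6 ± 8.69 (log2 -1.43 ± 0.19, adjusted p = 2.31e-05). Sorted CHIR cells had 33.8 ± 7.95 CPM of Actn1, overlapping BCS, and 29.8 ± 5.16 of Itga5, between the routes. Itga3 and Itga6, alpha chains of laminin receptors, had log2 differences of -1.29 and -0.61. Among targets of the transcription factors SRF and YAP, 6 of 31 were higher in BCS (19.4% against 7.4% of all genes) and 1 in CHIR (3.23% against 5.83%). Ctgf, a matricellular growth factor and YAP target, had 103, 143 and 110 CPM in CHIR and 478, 349 and 424 in BCS (log2 -1.81 ± 0.22, adjusted p = 2.6e-05), where normal cells had 54.6 to 72.0. Cyr61, its close relative, had 20.5, 29.8 and 20.5 against 92.9, 58.0 and 83.5 (log2 -1.73 ± 0.24, adjusted p = 6.02e-05). Actb, cytoplasmic actin, had 894, 932 and 877 against 1388, 1534 and 1649 CPM (log2 -0.76 ± 0.11, adjusted p = 6.51e-05). In each of the 3 genes the lowest BCS library lay above the highest CHIR library, a separation found for most called genes. Sorted CHIR cells had 1518 ± 105 CPM of Actb, overlapping BCS. Their levels of Ctgf (183 ± 20.4) and Cyr61 (47.4 ± 8.345) lay between those of the 2 routes. The target higher in CHIR was Cnn3 (log2 0.39, adjusted p = 0.0235), which missed the threshold without the filter (0.0674) and without CHIR replicate 1, CHIR replicate 2, BCS replicate 1 or BCS replicate 3 (0.0985, 0.141, 0.0654 and 0.0559).

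Epithelial junction and polarity genes were higher in BCS for 12 of 35 tested members (34.3% against 7.4% of all genes). None was higher in CHIR (against 5.83%), and the median log2 difference was -0.27. Ocln, the tight junction protein occludin, had 33.1, 37.3 and 30.5 CPM in CHIR and 83.1, 58.1 and 81.7 in BCS (log2 -1.14 ± 0.14, adjusted p = 6.84e-06). Epcam, an epithelial adhesion molecule, had 37.3, 39.8 and 40.3 against 87.2, 51.9 and 93.2 (log2 -0.98 ± 0.18, adjusted p = 0.000631). BCS replicate 2 was again the lowest of the BCS libraries in both genes, yet above all CHIR libraries. Ctnnd1, which stabilises cadherins at the membrane, had 142 ± 16.1 against 232 ± 15.3 CPM (log2 -0.71), and Cgn, the tight junction scaffold cingulin, 20.8 ± 5.19 against 43.8 ± 6.09 (log2 -1.06). Cdh1, E-cadherin, had 24.8 ± 4.29 against 28.3 ± 0.56 CPM (adjusted p = 0.605), and Cldn6 70.7 ± 1.44 against 86.7 ± 8.13 (adjusted p = 0.2). Without CHIR replicate 2 the number of members higher in BCS was 6, and it was 8 without CHIR replicate 3. With BCS replicate 2 left out, 2 were higher in CHIR. In the keratin and desmosome list 1 of 10 tested members was higher in each direction. This 10% lay near the shares over all genes (5.83% in CHIR and 7.4% in BCS). Krt19 was higher in CHIR (79.7 ± 7.69 against 48.4 ± 6.84 CPM, log2 0.73), with an adjusted p of 0.0586 without CHIR replicate 1 and 0.0506 without BCS replicate 2. Krt8 (488 ± 23.3 against 382 ± 96.0 CPM, adjusted p = 0.164) and Krt18 (284 ± 9.96 against 250 ± 66.4 CPM, adjusted p = 0.5) did not pass. The desmosomal cadherin Dsc2 was higher in BCS (22.5 against 32.0 CPM on average, log2 -0.50, adjusted p = 0.0453). Dsc2 missed the threshold with passage as a covariate (0.0619) and without CHIR replicate 1, 2 or 3 (0.0564, 0.17 and 0.126) or BCS replicate 1 or 3 (0.133 and 0.217). Of the mesenchymal genes, Snai1 was the single called member among 11 (9.09% against 13.2% of all genes called in either direction). Vim had 47.6 ± 10.2 against 68.5 ± 4.64 CPM (adjusted p = 0.0688).

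Of 22 tested aquaporin and fluid transport genes, 5 were higher in CHIR (22.7% against 5.83% of all genes) and none in BCS, although the median of the list was -0.02. Leaving out BCS replicate 2 gave 4 and 1. Slc12a2, the sodium-potassium-chloride cotransporter, had 105, 90.4 and 87.1 CPM in CHIR and 36.1, 50.9 and 44.7 in BCS (log2 1.09 ± 0.15, adjusted p = 1.83e-05). Atp1b1, a subunit of the sodium pump, had 87.1, 72.1 and 81.9 against 32.6, 55.1 and 45.3 (log2 0.85 ± 0.16, adjusted p = 0.000631). Normal cells lay between the routes for both genes, at 61.4 to 71.4 CPM of Slc12a2 and 60.3 to 75.5 of Atp1b1, where the normal and CHIR ranges of Atp1b1 overlapped. The other 3 were the carbonic anhydrases Car2 (log2 1.31) and Car12 and the chloride transporter Clcn5 (log2 0.55), whose adjusted p was 0.0538, 0.0559 and 0.0588 without CHIR replicate 2, CHIR replicate 3 and BCS replicate 1. For Car2 it was 0.0576 with the 2 groups fitted alone, and 0.112, 0.0833, 0.11 and 0.107 without CHIR replicate 1, CHIR replicate 2, BCS replicate 1 and BCS replicate 2. The count of 5 was 3 with the 2 groups fitted alone or without CHIR replicate 1, and 2 without CHIR replicate 2 or BCS replicate 1.

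In the list of cholesterol synthesis and uptake, 13 of 32 tested members were higher in BCS (40.6% against 7.4% of all genes). In CHIR 1 was higher (3.12% against 5.83%), and the median was -0.41. Msmo1, a sterol demethylation enzyme, had 83.7, 90.03 and 76.5 CPM in CHIR and 181, 150 and 210 in BCS (log2 -1.11 ± 0.14, adjusted p = 1.2e-05). Cyp51 had 140 ± 7.10 against 224 ± 5.30 CPM (log2 -0.68), and Sqle, squalene epoxidase, 44.1 ± 2.75 against 68.3 ± 4.57 (log2 -0.63). The groups did not overlap for any of these 3, which was also so for most called genes. The member higher in CHIR was Mylip, a ubiquitin ligase (log2 0.90, adjusted p = 0.0478). Mylip missed the threshold under 9 of 15 alternatives, among them the fits without CHIR replicate 1, 2 or 3 or BCS replicate 1 or 3 (0.102, 0.0937, 0.128, 0.156 and 0.18). Without CHIR replicate 1 or BCS replicate 1 the count of 13 was 8. Of 29 fatty acid and lipid droplet genes 8 were higher in BCS (27.6% against 7.4% of all genes) and 1 in CHIR (3.45% against 5.83%). Without BCS replicate 2, 2 were higher in CHIR. Fasn, fatty acid synthase, had 364, 316 and 483 CPM in CHIR and 872, 874 and 716 in BCS (log2 -1.08 ± 0.17, adjusted p = 0.0002), above the 185 to 231 of normal cells by both routes. Lpin1, a phosphatidate phosphatase, had 14.9 ± 2.76 against 35.0 ± 6.28 CPM (log2 -1.22 ± 0.19, adjusted p = 0.000112), and the desaturase Fads1 20.2 ± 5.41 against 43.4 ± 10.4 (log2 -1.1).

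Glycolysis and hypoxia-response genes had 13 of 39 members higher in BCS (33.3% against 7.4% of all genes) and 1 in CHIR (2.56% against 5.83%). Their median was -0.35. Aldoa, the glycolytic aldolase, had 138, 137 and 148 CPM in CHIR and 280, 235 and 225 in BCS (log2 -0.80 ± 0.14, adjusted p = 0.00029). Slc16a3, a lactate exporter, had 86.8 ± 10.3 against 176 ± 39.5 CPM (log2 -1.02), and Ero1a, an oxidoreductase of the endoplasmic reticulum, 127 ± 5.59 against 214 ± 18.7 (log2 -0.74 ± 0.16, adjusted p = 0.00217). The glucose transporter Slc2a1 had 25.7, 22.6 and 27.7 against 54.3, 76.6 and 33.9 (log2 -1.12, adjusted p = 0.0125), and its adjusted p was 0.0625 without CHIR replicate 2, 0.0539 without BCS replicate 1 and 0.0523 without BCS replicate 2. Every one of these genes was higher in BCS in all 3 libraries than in any CHIR library. Such separation held for 1459 of the 1522 called genes, so it is no separate result. Sorted CHIR cells had 265 ± 34.7 CPM of Aldoa, overlapping BCS. They had 92.5 ± 9.38 CPM of Slc16a3 and 144 ± 8.07 of Ero1a, below every BCS library. The count of 13 was 5 without BCS replicate 1, 6 without CHIR replicate 2 and 8 without CHIR replicate 1, and without BCS replicate 2 there were 3 higher in CHIR. Targets of the oxidative stress factor NRF2 gave 9 of 22 higher in BCS (40.9% against 7.4% of all genes) and none in CHIR (against 5.83%). The median was -0.41, and 1 was higher in CHIR without BCS replicate 2. Their summed level was 772.8 to 814.3 CPM in CHIR, 955.1 to 1191 in BCS and 1002 to 1185 in sorted CHIR cells. Beside Akr1b8, the glutathione transferase Gsta4 had 4.63, 5.0 and 3.83 CPM against 16.1, 16.6 and 16.2 (log2 -1.86 ± 0.25, adjusted p = 1.92e-05), and Ftl1, ferritin light chain, 86.6 ± 2.86 against 164 ± 2.23 (log2 -0.92 ± 0.16, adjusted p = 0.000522).

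Growth factors and their receptors differed in both directions. Fgf10, a ligand of FGFR2, had 31.5, 35.5 and 37.9 CPM in CHIR and 128, 131 and 98.3 in BCS (3.4-fold, log2 -1.77 ± 0.24, adjusted p = 5.9e-05). Normal cells had 126 ± 12.6 CPM of Fgf10, a level that the BCS libraries overlapped and the CHIR libraries did not reach. Its receptor Fgfr2 was higher in CHIR, at 7.57, 8.28 and 14.6 against 3.90, 5.40 and 2.07 (log2 1.41 ± 0.33, adjusted p = 0.00533, and 0.0608 without CHIR replicate 3). Fgfr3 was higher in BCS (24.4 ± 3.32 against 47.2 ± 3.91 CPM, log2 -0.95). Efnb2, a membrane-bound ephrin ligand, had 12.2, 8.11 and 11.6 CPM against 1.87, 3.85 and 2.46 (log2 1.92 ± 0.35, adjusted p = 0.000675). In total 4 of 27 genes of this list were higher in each direction, above the background of 5.83% and 7.4%. BMP pathway genes had 1 of 22 higher in CHIR (4.55% against 5.83% of all genes), the ligand Bmp4 at 1.09 ± 0.29 against 0.09 ± 0.09 CPM. In BCS 3 were higher (13.6% against 7.4%), among them the inhibitor Smad6 (2.01 ± 1.08 against 6.97 ± 1.43 CPM, log2 -1.79). Bmp4 missed the threshold without CHIR replicate 1 (0.0547) or BCS replicate 3 (0.0569), and Smad6 without CHIR replicate 1 (0.0522). Imprinted growth genes had 4 of 17 higher in BCS (23.5% against 7.4% of all genes), namely Igf2r, Peg3, Phlda2 and Cdkn1c. The adjusted p of Cdkn1c was 0.0827 without CHIR replicate 2 and 0.0555 without BCS replicate 2. The list had 5 of 18 members higher in BCS and 3 higher in CHIR when BCS replicate 2 was left out. Peg3, a paternally expressed zinc finger gene, had 47.2, 41.4 and 46.2 CPM in CHIR and 106, 212 and 89.2 in BCS (log2 -1.60 ± 0.25, adjusted p = 0.00043). Phlda2, a maternally expressed growth restrictor, had 28.4 ± 3.59 against 64.3 ± 4.74 CPM (log2 -1.18), the BCS level being close to the 62.1 to 63.1 of normal cells.

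Immediate early genes were higher in BCS for 7 of 24 members (29.2% against 7.4% of all genes) and higher in CHIR for 1 (4.17% against 5.83%). The list's summed level was 328 to 344.8 CPM in CHIR, 503.3 to 536.3 in BCS and 500.1 to 607.2 in sorted CHIR cells. Jund, an AP-1 subunit, had 41.2, 33.8 and 41.8 CPM in CHIR and 118, 82.1 and 89.0 in BCS (log2 -1.30 ± 0.15, adjusted p = 2.86e-06), and the stress factor Atf3 3.69 ± 1.19 against 8.84 ± 1.27 (log2 -1.27). Fos stood at 1.07 ± 0.20 and 1.1 ± 0.39 CPM (adjusted p = 0.995). Without CHIR replicate 1, CHIR replicate 2 or BCS replicate 1 the count of 7 was 3, 4 and 4, and Atf3 had an adjusted p of 0.0517 without CHIR replicate 1. Tmprss2, a membrane serine protease, had 7.29, 6.21 and 9.02 CPM in CHIR and 2.04, 2.20 and 1.81 in BCS (log2 1.89 ± 0.23, adjusted p = 6.41e-06). Mmp15, a membrane-type matrix metalloprotease, had 7.43, 6.73 and 6.83 against 0.85, 2.09 and 0.39 (log2 2.56 ± 0.35, adjusted p = 2.54e-05, and 3.53 without BCS replicate 2). Spint1, an inhibitor of membrane serine proteases, was higher in BCS (51.1 ± 9.28 against 106 ± 5.29 CPM, log2 -1.05), and so was Plaur, the urokinase receptor (9.07 ± 1.75 against 28 ± 4.94 CPM, log2 -1.62). In that list 3 of 26 members were higher in CHIR and 7 in BCS, the 7 being 4 without CHIR replicate 1, CHIR replicate 2 or BCS replicate 1.

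Amino acid and integrated stress response genes had 4 of 28 members higher in CHIR (14.3% against 5.83% of all genes) and 1 in BCS (3.57% against 7.4%). Psat1, of serine synthesis, had 60.4, 65.9 and 67.7 CPM in CHIR and 20.4, 29.0 and 26.4 in BCS (log2 1.35 ± 0.18, adjusted p = 2.39e-05), and Shmt2, the mitochondrial enzyme that takes serine into one-carbon metabolism, 215 ± 18 against 140 ± 8.30 (log2 0.62). Ribosomal protein genes had a positive difference in 30 of 33 with a median of 0.23. Only Rpl13a (log2 0.69), Rps15 and Rpl27 were called, all higher in CHIR (9.09% against 5.83% of all genes). With BCS replicate 2 left out, 5 members were higher in CHIR and 1 in BCS. Rps15 missed the threshold without CHIR replicate 2 or 3 or BCS replicate 1 or 3 (0.0983, 0.078, 0.0955 and 0.0746), and Rpl27 did so without each of these libraries (0.2, 0.0501, 0.159 and 0.105) or CHIR replicate 1 (0.119) and under 4 settings with all libraries (0.0521 to 0.0563). DNA replication genes had 3 of 34 higher in CHIR (8.82% against 5.83% of all genes) and 1 in BCS (2.94% against 7.4%). Mitosis genes had 1 of 32 higher in CHIR (3.12% against 5.83%) and 4 of 32 in BCS (12.5% against 7.4%). Cenpf, a kinetochore protein, had 19.8 ± 1.23 against 50.8 ± 8.38 CPM (log2 -1.35 ± 0.18, adjusted p = 2.39e-05), while the medians of both lists lay near that of all genes (0.14 and 0.03). Endoplasmic reticulum chaperones had 5 of 22 higher in BCS (22.7% against 7.4% of all genes), among them Pdia3 (266 ± 7.82 against 425 ± 45.0 CPM, log2 -0.67) and Calr (685 ± 70.0 against 1107 ± 39.5 CPM, log2 -0.69). Genes encoded in the mitochondrial genome gave 2 of 13 higher in BCS (15.4% against 7.4% of all genes). Their share of the counts outside the 2 most abundant genes was 2.88 to 4.08% in CHIR and 3.29 to 4.32% in BCS.

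A list of neural-associated genes was drawn up from an earlier look at these samples and is therefore no independent evidence. It had 2 of 13 members called, both higher in CHIR (15.4% against 5.83% of all genes). They were Ngfr and the neuronal tubulin Tubb3 (11.3 ± 1.41 against 3.73 ± 1.17 CPM, log2 1.57, adjusted p = 0.00173). The list's summed level was 214, 213 and 224 CPM in CHIR and 64.6, 162 and 63.5 in BCS. BCS replicate 2 lay between the groups, and without it 6 members were higher in CHIR. Markers of cells that might accompany the cultures were also summed. Fibroblast markers summed to 6.01 to 10.7 CPM in CHIR and 4.27 to 6.61 in BCS, with none of the 4 tested members called and Dcn, Lum, Postn, Col6a1 and Prrx1 at 0 counts. Blood and immune markers summed to 1.5 to 2.59 and 0.88 to 2.37 CPM, with Ptprc, Aif1, Cx3cr1 and Cd3e at 0 counts. Endothelial markers summed to 68.4 to 78.5 and 59.8 to 79.1 CPM, most of it from the receptor Tek (42.9 ± 6.03 and 37.8 ± 10.4 CPM), which was not called. Of 5 tested, Tie1 was higher in BCS (log2 -1.25), with an adjusted p of 0.0625 without CHIR replicate 2 and 0.0686 without BCS replicate 1, and Emcn and Sox18 had 0 counts.

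**Figure D5:**
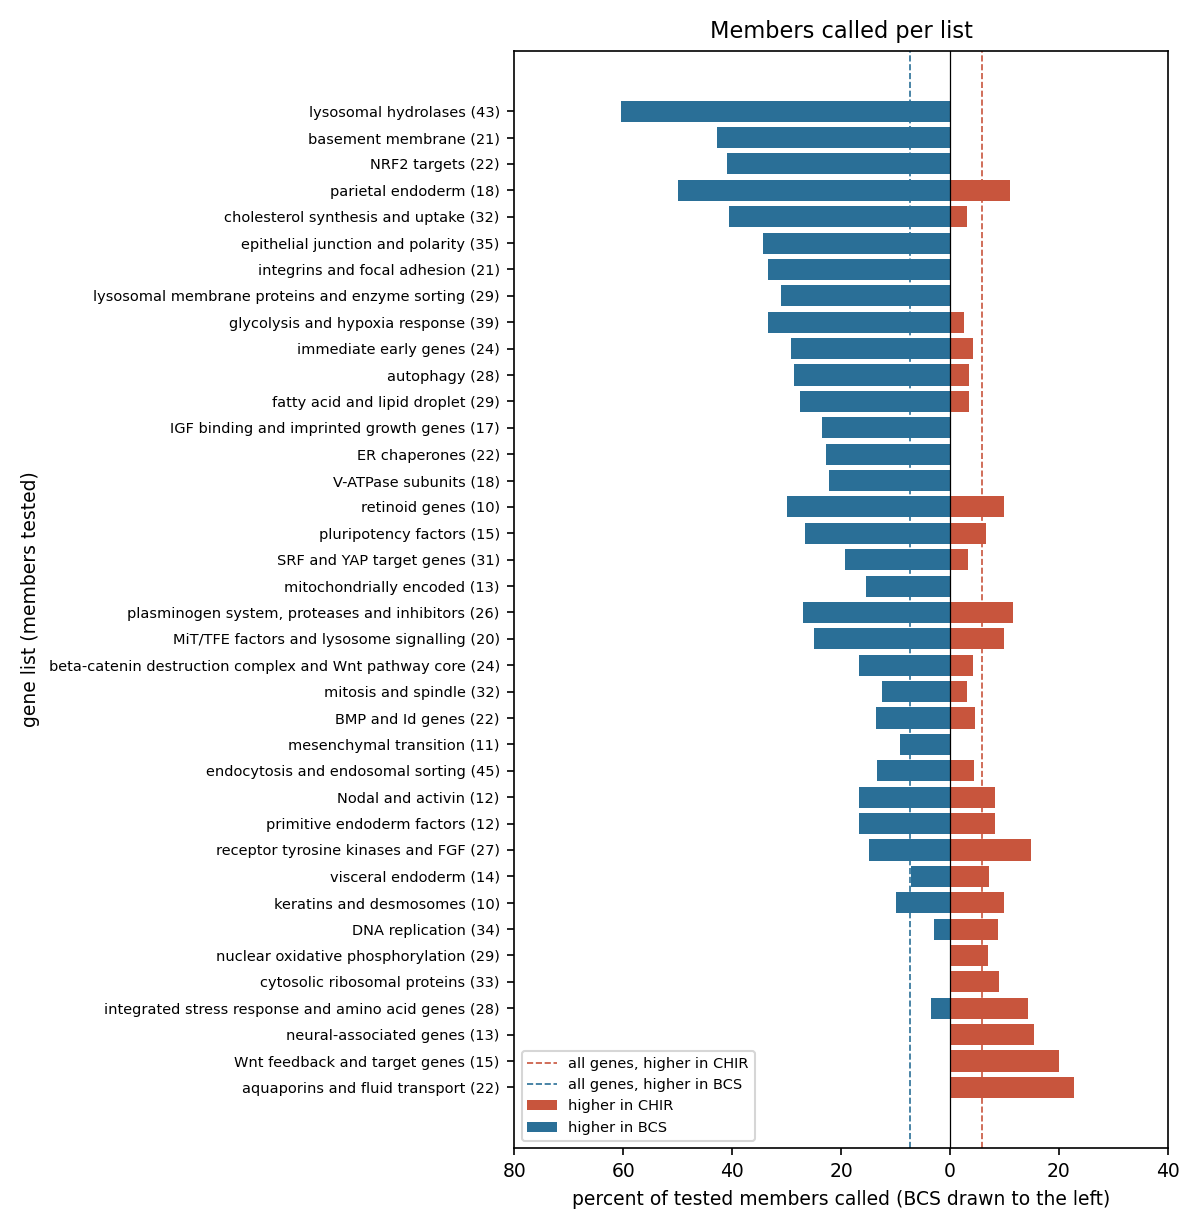
Bars give the percentage of each list's tested members that were called, to the left where higher in BCS and to the right where higher in CHIR, for lists with at least 10 tested members (number in brackets). Dashed lines mark the same percentages over all genes, 7.4 and 5.83, and the lysosomal hydrolases (26 of 43) reach farthest to the left, while aquaporins and fluid transport (5 of 22) reach farthest to the right.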

How the data were processed

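RNA from 18 samples (6 groups of 3) was rRNA-depleted and sequenced with a strand-marking kit, per the labels' protocols. The authors deposited counts per gene symbol for each sample in 3 columns, and the fourth column of each table, the stranded counts, was used. Trimmomatic 0.38, STAR 2.6.1, bcl2fastq and build rn6 are named in the submitters' processing notes, and the counting tool and annotation are not given in the sources used here. Reads were counted with strand, so antisense genes can be told apart, but genes with near-identical copies are uncertain.

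All 18 libraries were fitted with 1 mean per group in edgeR 4.0.16 (R 4.3.3, limma 3.58.1), with TMM scaling, a minimum count of 10 in its expression filter, a robust quasi-likelihood fit with 12 residual degrees of freedom and Benjamini-Hochberg adjustment over 11503 genes at a threshold of 0.05. Fold changes are log2, CHIR minus BCS, ± SE, and levels are TMM-scaled CPM ± SD. The SE was derived as the absolute log2 fold change divided by the square root of the test's F statistic. It is approximate and can be too small for genes with few counts. A gene needs about 10 counts in several libraries, of any of the 6 groups, to be tested. Depths of 5863329 to 8226037 counts set the precision. On simulated data for this comparison (11503 genes, 50 changed at each size) the test called 44% of 1.5-fold, 94% of 2-fold and 100% of 4-fold changes, and 7 of 11303 unchanged genes. The changed genes were drawn only from the more abundant ones, and every library was drawn around its group's mean. Each gene was given the spread typical of its abundance, with no extra spread of its own. These rates therefore do not cover genes with few counts, genes more variable than typical, or a library that stands apart, as BCS replicate 2 does.

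The members and the 43 gene lists (1103 genes) were chosen with earlier results of these data known, and lists are described by counts and medians without a test. Named were the 12 highest and 12 lowest log2 fold changes among called genes with separate groups and a mean log2 CPM of at least 3, up to 4 called members per list by adjusted p, and a set of 32 lineage, lysosome and matrix genes, with other list members as examples. Some genes that this rule names are not reported here. Promoters were matched by symbol to RefSeq (GRCr8) for 832 of the 1103 listed genes, and those printed depart from the rule set for them, which took genes by adjusted p with any motif. Same-numbered CHIR and BCS replicates did not deviate together (r = 0.00361, -0.0606 and -0.107), so numbers were not taken as pairs. Alternatives were DESeq2 1.42.0 and its size factors, no filter, unstranded counts, the 2 groups alone, passage, a replicate block, leaving out the 2 most abundant genes, and leaving out each library. The vesicle samples entered the expression filter, the TMM scaling and the estimate of spread, and none of their levels is quoted.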

Additional observations from a re-analysis of the deposited data

How the results depend on the processing

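Against 1522 called genes, the total was 1499 with DESeq2's size factors, 1733 with DESeq2 itself, 1669 without the filter, 1500 with unstranded counts, 1819 with the 2 groups fitted alone, 1609 with passage as a covariate and 1477 without the 2 most abundant genes. With the replicate number as a replicate block it was 1451 (1662 for the 2 groups alone), and the same numbers share no source in the labels. Leaving out 1 library gave 748 to 1947 called genes, 295 to 927 higher in CHIR and 453 to 1020 higher in BCS. Leaving out 1 library gave these ranges of list members higher in BCS: lysosomal hydrolases 16 to 25, lysosomal membrane 4 to 10, MiT/TFE 3 to 4, autophagy 5 to 8, endocytosis 2 to 4, epithelial junction 6 to 12, basement membrane 5 to 10, parietal endoderm 5 to 9, glycolysis and hypoxia 5 to 12, cholesterol 8 to 13, immediate early 3 to 6, and plasminogen and proteases 4 to 7. Aquaporin and fluid genes higher in CHIR ranged from 2 to 5, and were 3 with the 2 groups alone, with or without the replicate block. No other list count computed in this way moved by over 1.5 times under the settings that kept all libraries.

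Of 190 called genes, which take in those ranked by the naming rule and the further called genes named here, 120 were called under every setting that tested them. None of the 190 reversed direction. Dppa5 and S1pr1, among the 120, were tested under 13 of the 15 settings. Values that changed sign belonged to results that did not pass the test. The aquaporin median was 0.033 without the filter, and -0.30 to 0.043 (above 0 without CHIR replicate 1) when 1 library was left out. The log2 difference of Ctsd was 0.028 with passage and -0.36 to 0.45 when 1 library was left out, positive without BCS replicate 2. That of Sox17 was -0.019 to 0.28, negative without CHIR replicate 1 (-0.0034) or BCS replicate 3, and that of Krt18 -0.00084 to 0.38, negative without BCS replicate 2. Fos was at -0.00040 with DESeq2's size factors, -0.0086 with DESeq2, -0.12 with passage, -0.0024 without the 2 most abundant genes, and -0.28 to 0.18 when 1 library was left out. The cause was not tested. Genes with few counts, such as Axin2, are limited by depth.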

Other observations

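Several genes below the level set for naming, or outside the lists, separated the routes strongly and were chosen after their values were seen. Higher in CHIR were Ckmt1, a mitochondrial creatine kinase (20.2, 20.4 and 20.6 CPM against 1.87, 2.20 and 1.04, log2 3.56 ± 0.31, adjusted p = 4.8e-08), Nrp1, a co-receptor for semaphorins and VEGF (14.7, 6.21 and 12.7 CPM against 0, 0.88 and 0, adjusted p = 3.42e-05), and the chemokine Cxcl12 (5.58 ± 1.47 against 0.52 ± 0.23 CPM, log2 3.36). The sphingosine-1-phosphate receptor S1pr1 had 45 counts over the CHIR libraries and 2 over the BCS libraries, a ratio of 25.2 after scaling (95% counting interval 6.59 to 215). Pdzrn3, a ubiquitin ligase, had 56 counts against 0 and was at least 20.9-fold higher in CHIR, taking 3 counts over the BCS group as the floor. Intervals and floors cover counting error only.

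In the BCS direction stood Msln, the surface protein mesothelin (0.84, 0.17 and 0.41 CPM against 11.2, 11.45 and 8.03, log2 -4.33 ± 0.49, adjusted p = 2.19e-06, and -5.00 without CHIR replicate 1), and Mttp, which loads lipid onto apolipoprotein B (1.40, 1.73 and 2.05 CPM against 34.6, 9.91 and 37.2, adjusted p = 0.0056). Normal cells were also low in both, at 0.38 to 0.72 CPM of Msln and 0.96 to 1.62 of Mttp. The interferon-induced genes Isg15 (1 count against 92, ratio 82.1, interval 14.4 to 3280) and Rsad2 (3 against 32, ratio 9.51, interval 2.98 to 48.6) were higher in BCS as well. Another gene of an interferon-induced family, Ifit1bl, went the other way (21 against 2, ratio 11.8, interval 2.88 to 104). With unstranded counts the log2 difference of Isg15 was -2.12 in place of -5.91 and that of Mybpc3 -4.32 in place of -7.49. Rsad2 had an adjusted p of 0.0227 that rose to 0.107, 0.0804, 0.054 and 0.15 without CHIR replicate 2, CHIR replicate 3, BCS replicate 1 and BCS replicate 2, and that of Ifit1bl rose from 0.017 to 0.11, 0.075 and 0.0786 without CHIR replicate 2, BCS replicate 1 and BCS replicate 3. Mybpc3, a sarcomere protein, had 0 counts against 69 and was at least 20.5-fold higher in BCS.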
